A study of Mus musculus with 1073 samples.

Results

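The progenitors described here are haematopoietic progenitor cells (HPCs) of the E8.5 mouse yolk sac, divided by whether a read of *Csf1r* was found in the cell. The cells were chosen by their own RNA-seq counts: a cell with 1 count or more of *Csf1r* was called *Csf1r*-positive and a cell with 0 counts *Csf1r*-negative. This gave 35 positive and 54 negative cells of 89 E8.5 HPCs, in a series of 926 cells that passed the authors' filter. The series profiled single cells of 13 sorted populations from the yolk sac between gastrulation and midgestation, to follow how the blood and vascular lineages of this tissue arise. Each cell was caught at its own site of a Fluidigm C1 circuit and its mRNA was sequenced with Nextera XT libraries. All E8.5 HPCs were C57BL/6, without transgene or treatment in the labels, were sorted as TER119- CDH5+ CD41+ cells, and are labelled erythro-myeloid progenitors (EMPs). They came from 1 capture that was sequenced in 1 lane, and the labels name neither embryo nor pool, so each class is 1 sample, cells are not replicates, and no difference has a replicate check or a p-value. Reported here are the transcripts whose level differs where *Csf1r* is detected.

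CSF1R is the receptor tyrosine kinase for the cytokines CSF1 and IL-34, and most macrophages depend on it for survival and growth. EMPs bud from haemogenic endothelium of the yolk sac and form erythroid cells, megakaryocytes and myeloid cells, among them the forebears of tissue macrophages, and *Csf1r* reporter and Cre lines are used to trace that myeloid branch. In blood cells GATA1 drives erythroid and megakaryocytic genes and PU.1, encoded by *Spi1*, drives myeloid genes including *Csf1r*, while each factor can antagonise the other.

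The counts that defined the classes were low in many cells. Among the 35 positive cells *Csf1r* ranged from 1 to 433 counts with a median of 24. Just inside the threshold were 6 cells with a single count and 6 with 3 to 7, 23 cells held 12 or more, and just outside it all 54 negative cells were at 0. A single read therefore decided the class of 6 cells. The positive cells made up 39.3% of the E8.5 HPCs (exact binomial 95% interval 29.1 to 50.3; here and later such intervals cover counting error only). For comparison, 11 of 73 E8.25 HPCs held a count (15.1%, 7.77 to 25.4), 39 of 46 E9.5 HPCs (84.8%, 71.1 to 93.7), 60 of 87 E10.5 HPCs (69.0%, 58.1 to 78.5) and 25 of 25 E10.5 macrophages (100%, 86.3 to 100). Populations that should lack the receptor gave the background: 1 of 79 E8.5 endothelial cells (1.27%, 0.0320 to 6.85), with 6 counts, and none of 66 E8.5 primitive erythroid cells (EryP). Taken as 3 counts of the total, a count of 0 there still allows 4.55% of the cells, and the exact interval reaches 5.44%. E8.5 megakaryocytes (Mk) also gave 0 of 37, which allows up to 8.11% in the same way, with an interval up to 9.49%, while 2 of 73 E10.5 Mk held a count (2.74%, 0.334 to 9.55), at 1 and 13 counts. Median totals were 1555237 counts in E8.5 HPCs, 1874645 in E8.5 endothelium, 2099062 in EryP and 3536330 in Mk, so these 3 low shares were found at greater depth. The 12 positive cells with 1 to 7 counts and the 1 with 12 are thus within the range that cells of the background populations hold. In mean level E8.5 HPCs stood at 15.8 CPM of *Csf1r* and E10.5 macrophages at 763 CPM. CPM are the authors' counts scaled to a common library size with size factors.

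**Figure D1:**
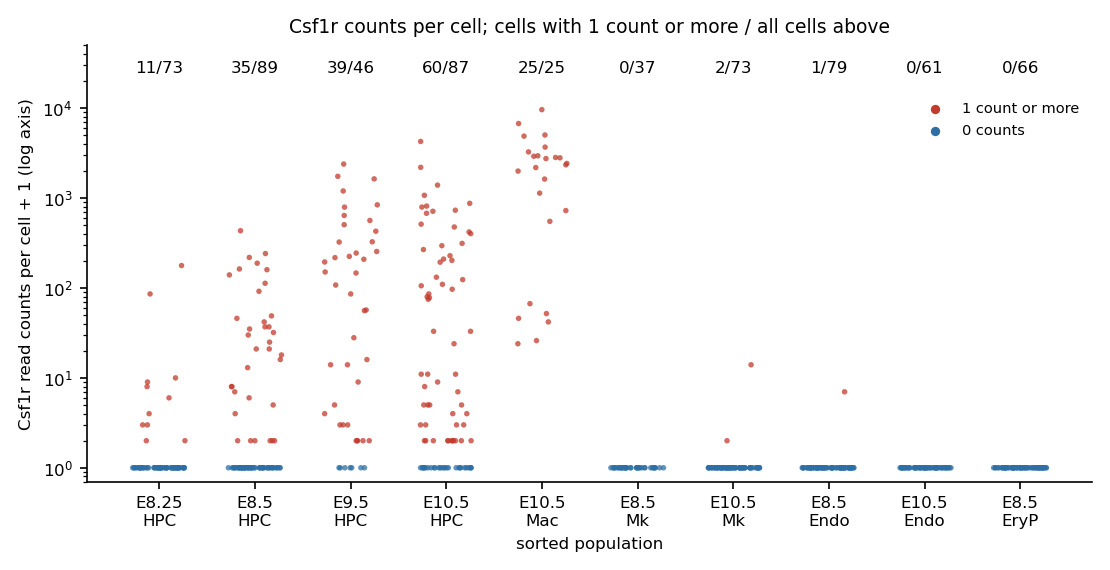
*Csf1r* read counts + 1 per cell (log axis) in 10 sorted populations, with each point a cell, red for 1 count or more and blue for 0 counts, and the number of positive cells over all cells at the top. The 35 positive E8.5 HPCs spread from 1 to 433 counts, while E10.5 macrophages reach 9661.

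Depth was similar in both classes. Positive cells held 903291 to 2586615 counts (median 1525744) and negative cells 883020 to 2363613 (median 1601906). The median number of genes detected was 9252 in positive and 8947 in negative cells. Mitochondrially encoded transcripts took a median of 3.19% and 3.17% of the counts.

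A single negative cell stood apart from the other 88. It had 5319 genes detected, against 6346 in the next lowest cell, and 35.2% mitochondrial counts, against 15.6% in the next highest. Its scaled CPM summed to 2479406, against 1220166 in the next highest cell, although its total of 1100122 counts was ordinary. For 701 genes the highest CPM of all 89 cells lay in this cell, so values are given with and without it wherever they rest on it. Transcripts of both sexes were found in 40 of 89 cells (44.9%), meaning at least 5 counts of the X-inactivation transcript *Xist* together with at least 5 from the Y chromosome (*Uty*, *Kdm5d*, *Eif2s3y* and *Ddx3y* summed). They were 14 of 35 positive cells (40.0%, 23.9 to 57.9) and 26 of 54 negative cells (48.1%, 34.3 to 62.2). At 100 or more of each kind the numbers were 3 of 35 and 4 of 54. The share was similar in both classes, and what part cells caught together or RNA carried between sites had in it was not tested.

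Levels were compared as the log2 ratio of mean CPM + 1, positive over negative, for every gene that averaged at least 10 CPM over the 89 cells and had a count in at least 20% of them. Of 15966 genes other than *Csf1r*, 8374 passed. Among these, 271 (3.24%) were at least 2-fold higher in positive cells and 373 (4.45%) at least 2-fold lower, which is what called higher or called lower means here. The filter took the mean over both classes, so a gene under 10 CPM in 1 class could pass through the other. For such genes the filter itself favours a call. Among called genes given later, *Ptprc*, *Evi2a*, *Nckap1l*, *Mpo*, *Pilra*, *Tyrobp*, *Mecom*, *Plvap*, *Postn* and *Gm43696* were under 10 CPM in negative cells. *Gp9*, *Treml1*, *Il10ra*, *Hbb-bt*, *Gja4* and *Gja6* were so in positive cells. The median ratio of all 8374 genes was -0.034, with quartiles of -0.29 and 0.25. Most genes thus stood at nearly the same mean in both classes. The mean and the share of cells with the gene moved the same way for 248 of the 271 higher and 258 of the 373 lower genes. Without the cell that stood apart, 264 were higher (3.16%) and 302 lower (3.61%), and 257 and 283 of these were also called with it. Leaving out all 40 cells with transcripts of both sexes left 21 positive and 28 negative cells. In these fewer cells 570 genes were higher and 533 lower, 175 and 214 of them also called in all cells. Which genes pass 2-fold thus depends in part on which cells are counted.

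**Figure D2:**
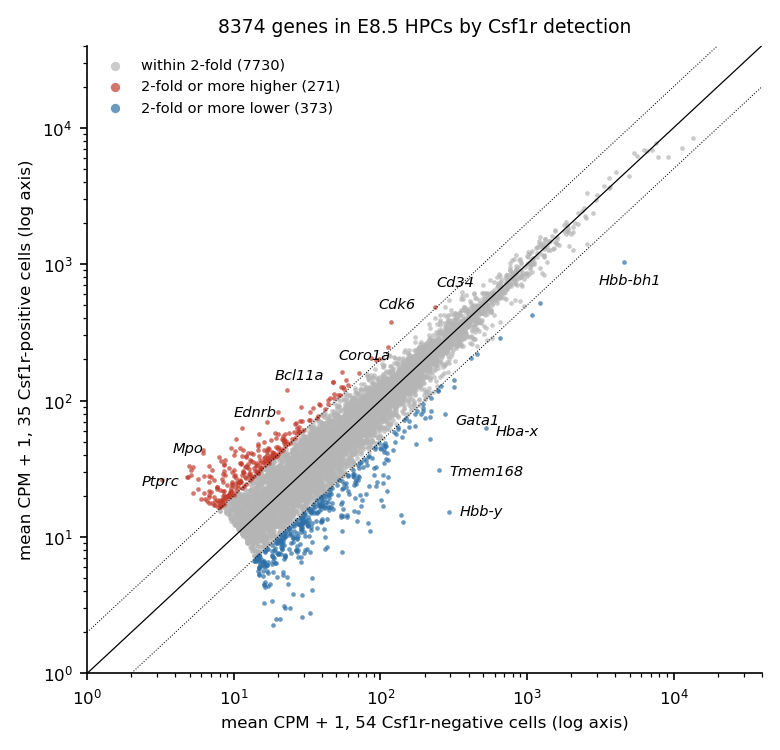
Mean CPM + 1 of 8374 genes in 54 *Csf1r*-negative (x) and 35 *Csf1r*-positive (y) E8.5 HPCs, both axes log; the solid line marks equal levels and the dotted lines 2-fold. Embryonic globins lie far below the diagonal, and 271 genes in red lie 2-fold or more above it.

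Markers of the sorted population were read next. All 9 progenitor markers (*Kit*, *Itga2b*, *Cdh5*, *Runx1*, *Myb*, *Gata2*, *Gfi1b*, *Tal1* and *Lmo2*) were detected among the 89 cells. *Cdh5*, which encodes the VE-cadherin used in the gate, ranged over 15.8 to 329 CPM with a median of 117.8 in positive cells and over 0 to 1219 CPM with a median of 27.6 in negative cells, and was found in 35 of 35 and 48 of 54. The means of 127.7 and 122.1 CPM were nearly equal, but the lower median says that many negative cells held little of it. *Itga2b*, which encodes the CD41 of the gate, averaged 78.3 and 101.6 CPM. *Runx1*, the transcription factor needed for blood to emerge from endothelium, was found in every cell of both classes, at medians of 222 and 189.8 CPM.

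The list with the most members called higher was that of the leukocyte cytoskeleton and surface. Of 29 pan-leukocyte genes, all in the table, 19 passed the filter. Of these, 9 were called higher and 1 lower, against 3.24% and 4.45% of all genes. The list median was 0.53 against -0.034 over all genes. Among those called higher, *Ptprc* (4.14 CPM), *Evi2a* (7.74) and *Nckap1l* (9.27) averaged under 10 CPM in negative cells and passed through positive cells. *Coro1a* (chromosome 7 of GRCm38, 126699773 to 126707787) encodes coronin 1A, an actin-binding protein of leukocytes. It ranged over 0 to 435 CPM with a median of 149.5 in positive cells and over 0 to 287 CPM with a median of 21.9 in negative cells. It was found in 32 of 35 positive cells (91.4%, 76.9 to 98.2) and 36 of 54 negative cells (66.7%, 52.5 to 78.9), and the means of 160.1 and 54.1 CPM gave a log2 ratio of 1.55. The ranges overlapped, yet the positive median exceeded most negative cells. *Rac2*, the small GTPase of blood cells, had medians of 97.5 and 8.02 CPM and a ratio of 1.51. Many negative cells thus held little of either transcript. *Nckap1l*, a subunit of the WAVE complex that branches actin, rose from 9.27 to 41.4 CPM (ratio 2.05). *Lcp1*, which encodes the actin-bundling plastin of leukocytes, averaged 103.2 against 44.1 CPM (1.21), and *Cd44*, a hyaluronan receptor, 199 against 96.4 (1.04). These are single members of a broad list, and 9 others that passed were within 2-fold.

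*Ptprc* (chromosome 1 of GRCm38, 138062861 to 138175708) encodes CD45, which the E8.5 gate did not use and which serves to sort HPCs at later stages. It was detected in 16 of 35 positive cells (45.7%, 28.8 to 63.4) and 6 of 54 negative cells (11.1%, 4.19 to 22.6), and its medians were 0 CPM in both classes. Its mean of 30.1 CPM in positive cells, against 4.14 CPM, therefore rests on a minority of the cells, with a highest value of 389 CPM. The negative mean rests largely on a single cell at 194.9 CPM. The log2 ratio was 2.60. The tetraspanin gene *Cd53* (1.00), the membrane protein gene *Evi2a* (1.71) and *Alox5ap*, which encodes the activator of 5-lipoxygenase (1.21), were also called higher. *Alox5ap* was found in 35 of 35 and 38 of 54 cells. *Fyb*, which encodes an adaptor of T cells and platelets, was the exception, at 15.8 against 38.7 CPM (-1.24). Elsewhere it was at 343 CPM in E10.5 Mk and 338 CPM in E10.5 macrophages.

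Genes of the phagocyte oxidase, which makes superoxide, were partly present. Of 6 genes 3 passed, and *Rac2*, the GTPase of the complex, was among those called higher. *Cyba*, the small membrane subunit, was not, with 49.2 and 63.8 CPM (-0.37), and *Cybb*, which encodes the catalytic subunit, had no count in any of the 89 cells. The oxidase was thus incomplete at the level of RNA in both classes.

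Receptors that bind antibody or microbial products were next. Of 18 genes 4 passed and 3 were called higher, against 3.24% of all genes, with a median of 1.08. *Fcgr3*, an Fc receptor for IgG, had a median of 56.0 CPM in positive and 0.642 CPM in negative cells, found in 31 of 35 and 29 of 54, and a ratio of 1.11. *Myd88*, the adaptor of Toll-like receptors, had medians of 59.3 and 8.63 CPM (1.04). *Pilra*, which encodes an inhibitory paired receptor, averaged 18.9 and 8.01 CPM (1.14), so it passed the filter through positive cells. *Fcer1g*, the signalling chain shared by several Fc receptors, was within 2-fold (0.82). *Tlr13* and *Ly86* had no count.

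In mean level most genes of the CSF1R pathway itself were within 2-fold between the classes. Of 24 ligand and signalling genes in the table, a total of 18 passed, 1 was higher and 0 lower. Of their ratios 13 were above 0 and 5 under it. The median of 0.35 lay above the upper quartile of all genes (0.25). Over all genes 3.24% were called higher. The 1 higher gene was *Tyrobp*, which encodes the adaptor DAP12 that carries signals of CSF1R and TREM2, at 23.9 against 9.42 CPM (1.26), in 28 of 35 and 24 of 54 cells. Its negative mean was under the 10 CPM of the filter, which it passed through positive cells. *Ptpn6* (SHP-1), the most abundant of the list, averaged 253 and 224 CPM, *Lyn* 152.1 and 172, and *Syk* 49.2 and 62.9. *Stat3*, a transcription factor activated by cytokines, was higher by less than 2-fold (0.84). The ligand gene *Csf1* was found in 3 of 35 and 2 of 54 cells. Negative cells thus held the transcripts of most signalling partners at a mean within 2-fold of positive cells. Medians differed more for some, such as *Plcg2* (69.7 and 18.0 CPM) and *Btk* (22.1 and 2.62), but not for *Lyn* (149.2 and 149.5).

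Myeloid transcription factors were mostly under the filter. Only 7 of 21 in the table passed, with a median of 0.18. Of the 7, 1 was called higher and 0 lower, against 3.24% and 4.45% of all genes. *Spi1* fell under the filter with a mean of 6.85 CPM, so its class values carry no call. It was found in 31 of 35 positive cells (88.6%, 73.3 to 96.8) and 24 of 54 negative cells (44.4%, 30.9 to 58.6), with means of 11.0 and 4.13 CPM and medians of 5.57 and 0. PU.1 mRNA was thus detected in most positive cells and in fewer of the negative ones. *Irf1*, an interferon-responsive factor, also under the filter, was found in 12 of 35 and 6 of 54 cells, and *Cebpb*, at means under 2 CPM, in 23 and 14. *Id2*, an inhibitor of basic helix-loop-helix factors, was the 1 called higher, at 34.2 against 14.7 CPM (1.17). *Ikzf1* (-0.0097) and *Zeb2* (-0.38), factors of many blood lineages, were within 2-fold, and *Irf8* was found in 3 and 2 cells.

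Granule genes of early granulocyte-monocyte progenitors were led by *Mpo* (chromosome 11 of GRCm38, 87793581 to 87804413), which encodes myeloperoxidase. It ranged over 0 to 184 CPM with a median of 5.38 in positive cells and reached 49.4 CPM, with a median of 0, in negative cells. It was found in 23 of 35 (65.7%, 47.8 to 80.9) and 15 of 54 cells (27.8%, 16.5 to 41.6), for means of 32.2 and 3.95 CPM and a ratio of 2.74. It passed the filter through positive cells. *Prtn3*, the proteinase 3 gene, was in 12 and 13 cells under the filter, and *Elane*, *S100a8* and *S100a9* had no count. Of the 9 granule genes in the table only *Mpo* and *Calr*, which encodes the chaperone calreticulin, passed, the latter at -0.025, so the median of 1.36 stands for those genes alone.

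Many genes of mature macrophages had few or no counts in either class, while others were found in most cells of both. Only 4 of 21 in the table passed and none was called, with a median of 0.58. *C1qa*, *Adgre1* (F4/80), *Mertk*, *Timd4*, *Cd14*, *Aif1* and *Ctss* had no count in 89 cells, and the receptor *Cx3cr1* was found in 1 positive and 2 negative cells. *Mrc1*, the mannose receptor and the most abundant of the list, was found in 30 of 35 and 43 of 54 cells at means of 113.99 and 142.9 CPM (-0.32), and *Lyz2*, lysozyme, in 27 and 26 at 32.7 and 25.5 (0.35). The summed level of the list had medians of 199 and 135.3 CPM. The sign of this list's median changed when only cells with 10 or more *Csf1r* counts were called positive (-0.12) or the highest cell of each class was left out for each gene (-0.27). Most of the listed genes thus did not pass the filter, and those that did were within 2-fold.

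The genes with the highest ratios by the naming rule were mostly of other kinds. The rule took the 14 highest among genes found in 50% or more of positive cells at a mean of 50 CPM or more there, with a higher share of cells as well. First was *Ednrb* (chromosome 14 of GRCm38, 103814625 to 103844402), the type B endothelin receptor gene. It ranged over 0 to 313 CPM with a median of 25.8 in positive cells, and reached 126.1 CPM with a median of 0 in negative cells. It was found in 22 of 35 (62.9%, 44.9 to 78.5) and 11 of 54 cells (20.4%, 10.6 to 33.5), with means of 62.1 and 10.3 CPM and a ratio of 2.48. *Bcl11a*, which encodes a zinc finger repressor known for its part in globin switching and lymphoid development, had means of 117.9 and 22.2 CPM (2.36) and was found in 30 of 35 and 28 of 54 cells. The naming rule itself asked for detection in 50% or more of positive cells and a higher share there.

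*Cdk6*, the cyclin D-dependent kinase of early blood progenitors, ranged over 3.40 to 2229 CPM with a median of 290.1 in positive cells and over 0 to 419 CPM with a median of 80.5 in negative cells. It was found in nearly every cell (35 of 35 and 52 of 54), so its ratio of 1.68 is one of level rather than detection. *Capg*, which encodes an actin-capping protein of macrophages, averaged 81.6 and 19.1 CPM (2.04), and *Bmpr1a*, a type I BMP receptor gene, 55.5 and 13.8 (1.93). *Rev3l*, the catalytic subunit of DNA polymerase zeta (1.52), and *Zfyve16*, an endosomal FYVE protein (1.51), had low medians in both classes, at most 17.9 CPM. *Rev3l* drops to 0.96 without the highest cell of each class. *Dab2*, an endocytic adaptor gene, rested on 1 positive cell that held 57.9% of the class sum, with medians of 1.47 and 0.674 CPM; its ratio of 1.36 drops to 0.63 without the highest cell of each class. The remaining named genes were *Coro1a* and *Rac2*, given earlier, and *Gm43696* (2.34), *Zfp760* (2.04), *AI987944* (1.63) and *Etohi1* (1.51), all with medians under 4 CPM. Reads of zinc finger genes such as *Zfp760* can be shared with close paralogues. Without the cell that stood apart, 12 of the 14 were named again, with *Prex1*, a Rac activator gene (1.67), and *Bloc1s6*, a gene of lysosome-related organelles (1.56), in place of *Etohi1* and *Dab2*. Other alternatives named fewer of the 14 again: 5 without cells with transcripts of both sexes, 5 with mean log2 values, 7 at 10 or more *Csf1r* counts, 8 with thinned counts and 8 without the highest cell of each class. The order of the named genes thus depends on these choices.

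**Figure D3:**
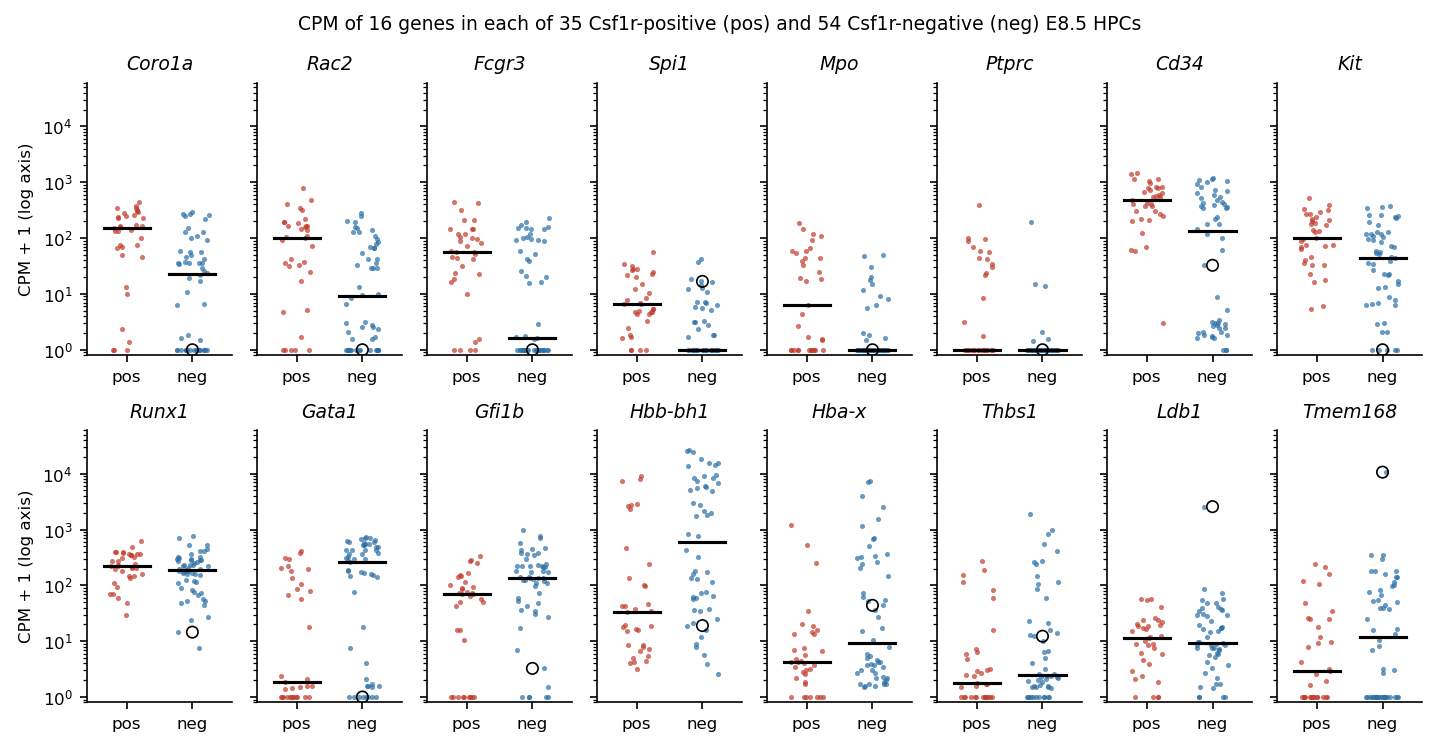
CPM + 1 (log axis) of 16 genes in each E8.5 HPC, with 35 *Csf1r*-positive cells in red and 54 *Csf1r*-negative cells in blue; bars mark medians, and the open circle is the negative cell that stood apart. Negative cells spread from 0 to high levels of *Coro1a*, *Cd34* and *Fcgr3*, and *Gata1* is at or near 0 in many positive cells.

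Erythroid genes were lower in positive cells. There 17 of 26 in the table passed, and all 17 ratios were under 0, with a median of -1.32. Of the 17, 11 were called lower and 0 higher, against 4.45% and 3.24% of all genes. *Gata1* (chromosome X of GRCm38, 7959260 to 7978071) ranged over 0 to 404 CPM with a median of 0.821 in positive cells and over 0 to 722 CPM with a median of 265 in negative cells. It was found in 23 of 35 (65.7%, 47.8 to 80.9) and 46 of 54 (85.2%, 72.9 to 93.4), with means of 78.1 and 277 CPM and a ratio of -1.81. More than 1 in 2 positive cells thus held almost none of the factor, while most negative cells held it at a high level. *Nfe2*, a factor of erythroid and megakaryocytic genes, had medians of 39.2 and 88.7 CPM (-1.15). *Klf1*, the erythroid Krüppel-like factor, was under the filter and found in 10 of 35 and 22 of 54 cells.

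Globins showed the same direction with a wide spread. *Hbb-bh1* (chromosome 7 of GRCm38, 103841637 to 103843164), the embryonic beta-like globin gene, was found in every cell and ranged over 2.20 to 8940.3 CPM with a median of 32.9 in positive cells and over 1.61 to 26745 CPM with a median of 598 in negative cells, for a ratio of -2.15. *Hba-x*, the zeta globin gene, had medians of 3.20 and 8.22 CPM but means of 62.3 and 521 (-3.04), and *Hbb-y*, the epsilon globin gene, medians of 0.821 and 2.32 and means of 14.3 and 295 (-4.28). The mean differences of these genes come from a few negative cells with up to 7347 and 6359 CPM, and their medians differ far less. *Hba-a1* (-2.32) and *Hbb-bt* (-1.89) were lower too; each has a near-identical neighbour, *Hba-a2* and *Hbb-bs*, to which its reads could be assigned. Near-identical copies leave the share of each of these globins uncertain. Genes of haem metabolism followed: *Alas2*, the first enzyme of erythroid haem synthesis (-1.32), and *Blvrb*, biliverdin reductase B (0.733 and 23.1 CPM as medians, -2.03). *Alas2* had medians of 0 CPM in both classes and was found in 10 of 35 and 23 of 54 cells. *Car2* (-0.59), *Tfrc*, the transferrin receptor gene (-0.12), and *Fech* (-0.87) were within 2-fold, and *Slc4a1* (band 3) had no count.

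Over the whole list the summed CPM had a median of 1079.7 in positive and 2446 in negative cells, with ranges of 329 to 13284 and 401 to 41647, and *Hbb-bh1* was its most abundant gene. The list median was -1.35 without the cell that stood apart, -1.95 without the highest cell of each class and -1.89 without cells with transcripts of both sexes. It was -1.02 with thinned counts, -1.04 with a pseudocount of 10, -1.10 with a filter at 50% of cells and -1.17 with mean log2 values. Erythroid cells expressing *Hbb-bh1* at a mean of 56134 CPM were sorted from the same tissue; the part of their RNA in the levels given here was not tested. EryP also held *Gata1* (501 CPM) and *Gfi1b* (256 CPM).

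Megakaryocyte and platelet genes were also lower, though fewer passed 2-fold. Of 21 genes 15 passed, with a median of -0.78 and summed CPM of 1818 and 2940.1 as medians. Of the 15, 6 were called lower and 1 higher, against 4.45% and 3.24% of all genes. *Thbs1*, the thrombospondin gene, averaged 26.4 and 111.9 CPM (-2.04), but its medians of 0.799 and 1.47 show that a few cells carry it. *F2rl2*, a thrombin receptor gene, was found in 16 of 35 and 36 of 54 cells (-1.63). Each of these thus separates some cells rather than whole classes. *Gp9* (-1.96) and *Gp1ba* (-1.28), subunits of the von Willebrand factor receptor, *Treml1*, a platelet granule receptor gene (-1.48), and *Pf4*, platelet factor 4 (-1.28), completed the 6. *Rab27b* (-0.92) and *F2r*, the main thrombin receptor gene of the list (-0.78), were lower by less than 2-fold. *Plek*, the most abundant of the list, averaged 1033 and 1369.7 CPM (-0.41). The exception was *Mmrn1*, multimerin 1 of platelets and endothelium, with medians of 146.7 and 27.6 CPM and a ratio of 1.13. Without cells with transcripts of both sexes the list median was -1.11. It was -0.67 with a filter at 50% of cells and -0.57 without 9 cells each with the fewest and the most genes.

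Of the 14 genes named lower, 7 rested on the negative cell that stood apart, which held 60.8 to 85.7% of the class sum of each. The endosomal adaptor gene *Appl2* went from a ratio of -3.25 to -0.53 without that cell, the membrane protein gene *Tmem168* from -3.03 to -0.85, and *Gucd1* from -2.64 to -0.56. *Cenpu*, of the centromere, went from -2.44 to -1.13, and *Ints12*, of the Integrator complex, from -2.07 to -0.56. *Ldb1*, the partner of LMO2 and TAL1, went from -2.08 to -0.25, and *Gmpr*, GMP reductase, from -2.07 to -0.24. Only *Cenpu* of these stayed past 2-fold. The other 7, among them *Hbb-y*, *Hba-x*, *Hba-a1*, *Blvrb*, *Thbs1* and *Gja6*, were named without the cell as well. *Gja6*, a connexin gene, was found in 6 of 35 and 29 of 54 cells, at 9.98 and 84.5 CPM (-2.96).

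Leaving that cell out brought 7 other genes to the lower end. They were *Gata1* (-1.84), *Tubb1*, the beta-tubulin gene of platelets (-1.85), *Rgs10*, a regulator of G-protein signalling (-1.93), *Slc39a8*, a zinc transporter gene (-1.95), *Slc38a5*, an amino acid transporter gene (-2.04), *Rabgap1l* (-1.98) and *Zfp950* (-1.92). *Rgs10* had medians of 10.7 and 85.7 CPM and was found in 20 of 35 positive and 48 of the remaining 53 negative cells. *Slc39a8* had medians of 0.551 and 39.6 CPM.

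Transcription factors of blood progenitors were largely shared. Of 25 genes 20 passed, with a median of 0.082. Of the 20, 2 were called higher and 3 lower, against 3.24% and 4.45% of all genes. *Meis1*, the most abundant of the list, averaged 541 and 505 CPM (0.099), *Fli1* 423 and 513 (-0.28), *Myb* 43.9 and 37.4 (0.23) and *Gata2* 53.5 and 51.1 (0.066). These 4 were well within 2-fold. *Gfi1b*, a repressor needed for red cells and platelets, had medians of 67.9 and 134.4 CPM (-1.23). Also called lower was *Ldb1*, which rested on 1 cell. *Mycn*, a MYC family gene, was higher with medians of 35.9 and 4.07 CPM (1.19). *Mecom*, a zinc finger factor of blood stem cells and endothelium, was found in 15 of 35 and 12 of 54 cells (1.89), with medians of 0. *Hoxa7*, *Hoxa9* and *Hoxa10* had no count.

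Cytokine receptors told the classes apart in few cases. Of 26 genes 13 passed, with a median of 0.12, or 0.62 without the cell that stood apart. Of the 13, 1 was called higher and 1 lower, against 3.24% and 4.45% of all genes. *Ifngr1*, the interferon gamma receptor gene, had medians of 95.3 and 9.73 CPM (1.12). *Il10ra*, the interleukin-10 receptor gene, was found in 6 of 35 and 23 of 54 cells (-2.13). Both transcripts occurred in cells of either class. *Kit*, the stem cell factor receptor gene, averaged 145.2 and 83.0 CPM (0.80), and *Csf3r*, the G-CSF receptor gene, 60.2 and 33.9 (0.81), in 28 and 26 cells. *Flt3*, *Il7r*, *Cxcr4* and *Ccr1* had no count in the 89 cells.

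Endothelial genes were mostly within 2-fold. There 22 of 32 in the table passed, with a median of 0.36 and summed CPM of 2274 and 1318 as medians. Of the 22, 2 were called higher and 1 lower, against 3.24% and 4.45% of all genes. *Flt4*, the receptor gene for VEGF-C, was found in 35 of 35 and 39 of 54 cells (1.03), and *Plvap*, of endothelial fenestrae, in 30 and 29 (1.13). Both were detected in a larger share of positive cells. *Cd34*, a sialomucin gene of endothelium and progenitors, had medians of 482 and 131.1 CPM and a ratio of 0.90, and *Esam*, an adhesion molecule gene, of 131.2 and 37.2 (0.88). *Stab2*, a scavenger receptor gene, was called lower (-1.09), though it was found in 18 of 35 and 16 of 54 cells and its sign changed without cells with transcripts of both sexes (1.29). The list median was 0.095 at 10 or more *Csf1r* counts and 0.11 with thinned counts, and on the mean of log2(CPM + 1) it was 1.15; that scale weighs detection more than the mean does. Of 14 Notch and arterial genes 3 passed, with a median of -0.10, and *Gja4*, a connexin gene of arteries, was lower (-1.44).

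Lists of the cell cycle, glycolysis and ribosomal proteins had medians between the quartiles of all genes (-0.29 and 0.25). Those of the lysosome and embryonic timing lists lay above the upper quartile. The S phase list (24 of 24 passed) had a median of -0.14, the mitosis list (22 of 22) -0.27, the glycolysis list (17 of 18) -0.20 and the ribosomal protein list (80 of 86) -0.17, with no member called. The lysosome and protease list (17 of 19) stood at 0.30, with 0 called; its cathepsin genes *Ctsd* (0.60) and *Ctsz* (-0.65) went opposite ways. Among embryonic timing genes (8 of 8 passed, 0 called, median 0.28), *Hmga2* averaged 595 and 385 CPM and *Dnmt3b*, a de novo DNA methyltransferase gene, 421 and 255. In none of these lists was a member past 2-fold. Antigen presentation had 3 of 11 genes past the filter and none called (median 0.64), with *B2m* at 85.9 and 54.9 CPM, and the class II gene *Cd74* had no count. Of 8 immediate early genes that passed (median 0.36), *Btg2*, an antiproliferative gene, was lower at 40.4 and 109.97 CPM (-1.42). *Postn*, the 1 of 15 mesenchymal genes that passed, was found in 11 of 35 and 7 of 54 cells (1.24), while *Col1a1* had no count. No visceral endoderm gene of 2 and no mast cell gene of 3 in the table passed the filter. Mitochondrially encoded genes had 14 of 26 past the filter and 3 called lower (*mt-Atp6*, *mt-Co2* and *mt-Co3*), against 4.45% of all genes. Their median was -0.68, or -0.19 without the cell that stood apart. The 3 genes were then at -0.31, -0.39 and -0.32, within 2-fold.

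**Figure D4:**
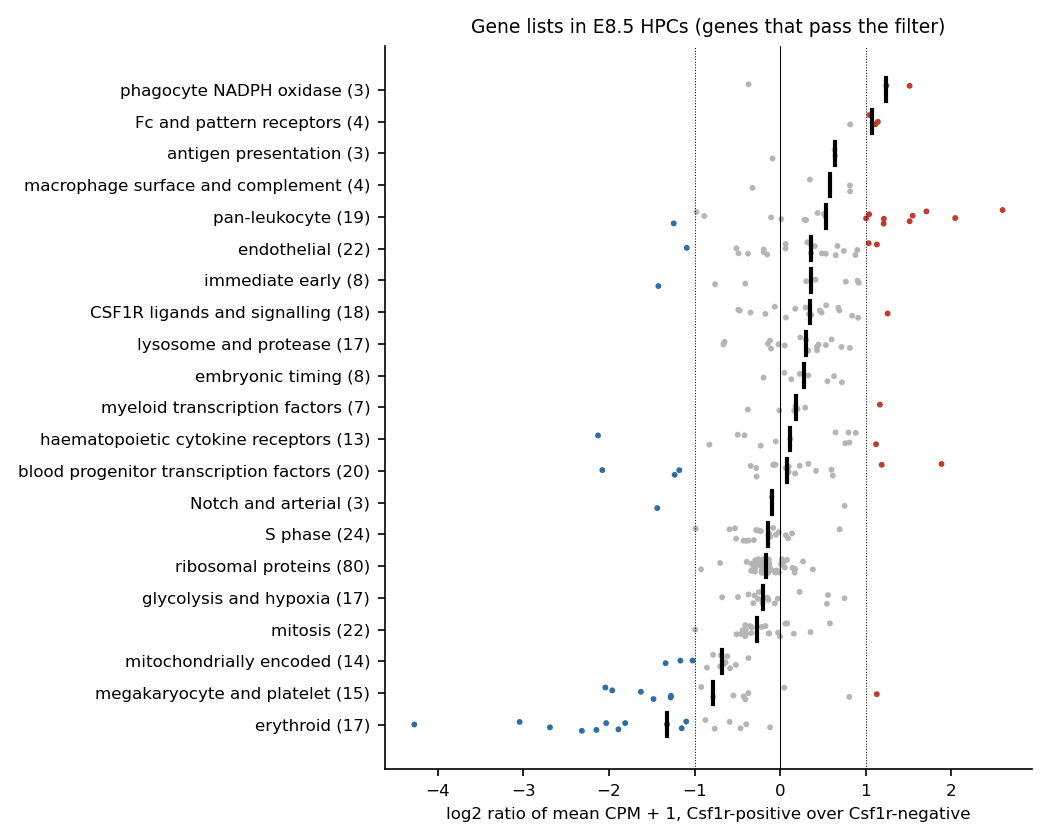
Log2 ratios of mean CPM + 1, *Csf1r*-positive over *Csf1r*-negative E8.5 HPCs, for the genes of each list that passed the filter (number in parentheses); points are genes, bars are list medians, and dotted lines mark 2-fold. Erythroid and platelet lists lie to the left, and oxidase, Fc receptor and pan-leukocyte lists to the right.

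Within the positive class, cells with many *Csf1r* counts differed from those with few for some genes only. The class was divided into 12 cells with 1 to 9 counts and 23 with 10 or more, beside the 54 cells at 0. *Mpo* averaged 3.95, 16.9 and 40.1 CPM in that order, *Coro1a* 54.1, 125.5 and 178, and *Ednrb* 10.3, 40.9 and 73.2. Such genes were chosen as higher in the positive class, so only the step from few to many counts is not set by the choice. *Bcl11a* averaged 22.2, 24.3 and 167 CPM, *Ptprc* 4.14, 6.16 and 42.6, and *Tyrobp* 9.42, 6.41 and 33.0. For these 3 genes the cells with few counts were close in mean to the cells with none, and only the cells with 10 or more stood higher. For *Ptprc* the mean of the cells with none rests largely on 1 cell at 194.9 CPM. *Gata1* averaged 277, 77.1 and 78.6 CPM and *Hbb-bh1* 4589, 1155 and 973, so that cells with few counts were already as low as those with many. Other named genes were highest in the cells with few counts: *Dab2* averaged 25.1, 159.7 and 17.2 CPM, *Rev3l* 46.4, 280.3 and 59.4, and *Zfyve16* 17.0, 91.0 and 29.4. For *Dab2* and *Rev3l* the single highest cell, at 1339.6 and 2053 CPM, lay among the 12 cells with few counts and carries much of that mean. *Zfp760*, *Gm43696*, *AI987944* and *Etohi1* also averaged less at 10 or more counts than at 1 to 9, while *Capg*, *Bmpr1a*, *Cdk6* and *Rac2* averaged more.

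The named genes were also read in other sorted populations. Of the 14 named higher, 5 were highest in E10.5 macrophages, 2 in E10.5 HPCs, 1 in E8.5 endothelium and 1 in E10.5 endothelium. The other 5 were highest in the *Csf1r*-positive E8.5 HPCs, for which they had been chosen, and HPCs of E8.25 and E9.5 were not among the populations compared. *Coro1a* stood at 2018 CPM in E10.5 macrophages and 0 in E10.5 endothelium, and *Ednrb* at 393 CPM in macrophages and 116.1 in E8.5 endothelium. *Bcl11a* was at 83.1 CPM in E10.5 HPCs and 33.9 in macrophages, under the 117.9 of the positive E8.5 cells. *Mpo* reached 1202 CPM in E10.5 HPCs and 11.1 in macrophages, so it was higher in those progenitors than in macrophages. Of the 14 named lower, 6 were highest in E8.5 EryP (*Blvrb* at 685 CPM), 1 in E8.5 Mk, 1 in E10.5 Mk (*Thbs1* at 3569) and 6 in the *Csf1r*-negative E8.5 HPCs, each of which rested on the cell that stood apart.

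The same division was made in the HPCs of the other stages, each 1 capture of its own gate and depth, with values set side by side and not tested. At E8.25, where the gate was alike, 11 positive and 62 negative cells gave 392 genes higher (4.70%) and 967 lower (11.6%) of 8336. Only 1 to 9 *Csf1r* counts were held by 9 of these 11 positive cells, 11 of 39 at E9.5 and 24 of 60 at E10.5. Of the 14 genes named higher at E8.5, 10 had a ratio above 0 at E8.25 and 7 were called higher, and of the 14 named lower all 14 were under 0 and 9 were called lower. Of the latter, 7 rested on 1 cell at E8.5. Fewer named genes were called later: 5 of 13 named higher and 0 of 6 named lower that passed at E9.5 (2 of these under 0), and 2 of 13 and 1 of 8 at E10.5. *Coro1a* averaged 127.9 and 22.2 CPM at E8.25 (2.47) and *Gata1* 57.2 and 231 (-1.99). *Ednrb* (-0.24) and *Cdk6* (-0.24) were not higher at that stage, nor were *Bmpr1a* (-0.69) and *Gm43696* (-1.19), and *Ptprc* was found in 0% of positive and 1.61% of negative cells. From the earliest to the latest of the 4 stages the erythroid list had medians of -2.15, -1.32, -1.12 and -0.26, with 15 of 20, 11 of 17, 5 of 9 and 0 of 10 genes called lower and 1 called higher, at E9.5. The difference was thus small at E10.5, where no member was called. The macrophage list had medians of 1.43, 0.58, 3.22 and 4.91 in the same order, with 4 of 4 genes called higher at E8.25, 7 of 8 at E9.5 and 13 of 14 at E10.5, against 0 of 4 at E8.5. Over all genes 21.9% were called higher and 12.3% lower at E9.5, and 6.67% and 1.40% at E10.5. Most members that passed were thus called higher in the other captures, and none at E8.5. The pan-leukocyte list had medians of 0.19, 0.53, 0.40 and 0.52 from E8.25 on, with 3 of 16 called higher at E8.25, and the megakaryocyte list -0.12, -0.78, -1.37 and -0.30, with 3 of 12 called lower at E8.25. Both were thus closer to 0 at E8.25 than at E8.5. The medians of all genes were -0.085, -0.034, 0.22 and 0.012 in the same order. Mitochondrially encoded genes had medians of -1.53 (16 of 17 lower), -0.68, 0.77 (6 of 16 higher) and 0.74 (5 of 16 higher), and their part in the other values was not tested. At E9.5 only 7 cells were negative, and the later HPCs were sorted as CDH5- CD45+ cells, so stage, gate and run cannot be told apart.

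**Figure D5:**
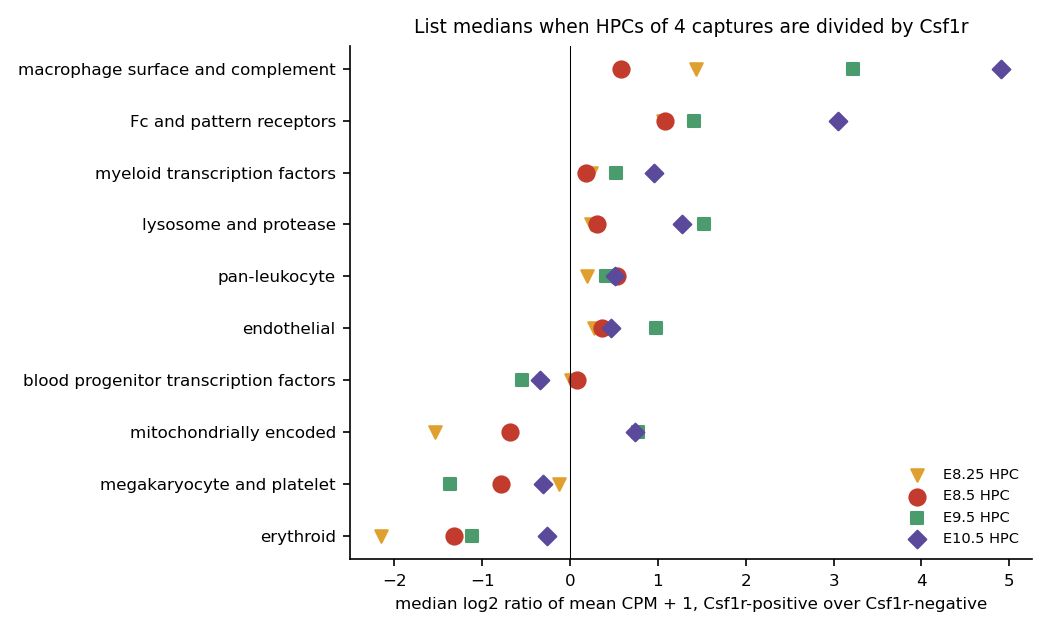
Median log2 ratio of mean CPM + 1, *Csf1r*-positive over *Csf1r*-negative cells, for 10 gene lists in the HPCs of each stage from E8.25 to E10.5 (1 capture each). The erythroid list is under 0 in all 4 captures, and the macrophage list reaches 4.91 at E10.5.

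RefSeq windows (GRCm38.p6, 250 bases before to 50 after a start) were found for 10 of the 14 genes named higher and 12 of the 14 named lower. They were searched on both strands for GAGGAA, the core letters of a PU.1 site, and AGATAA, the letters of a GATA site. GAGGAA was in 28.3% of all 32851 windows, and in a window of 2 of the 10 genes named higher and 1 of the 12 named lower. AGATAA was in 11.2% of all windows, and in a window of 1 of the 10 and 1 of the 12. Over all 27025 genes with a window the shares were 31.3% and 12.7%. Neither set was thus rich in either motif. A match is a description of letters and not a binding site. Shown are the genes with the highest and the lowest ratio among those named by the rule, *Ednrb* (chr14:103843652-103843951, minus strand) and *Hbb-y* (chr7:103853158-103853457, minus strand), neither of which holds a match, and the single named gene with both motifs in 1 window, *Dab2* (chr15:6299539-6299838, plus strand). Capitals mark the motifs, and each window reads 5′ to 3′ on the strand of its gene.
Ednrb: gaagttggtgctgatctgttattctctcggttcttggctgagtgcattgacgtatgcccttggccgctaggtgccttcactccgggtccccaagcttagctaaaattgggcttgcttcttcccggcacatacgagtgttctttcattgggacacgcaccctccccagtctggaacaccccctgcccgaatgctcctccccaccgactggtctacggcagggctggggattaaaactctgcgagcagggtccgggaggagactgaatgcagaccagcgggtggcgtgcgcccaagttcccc
Hbb-y: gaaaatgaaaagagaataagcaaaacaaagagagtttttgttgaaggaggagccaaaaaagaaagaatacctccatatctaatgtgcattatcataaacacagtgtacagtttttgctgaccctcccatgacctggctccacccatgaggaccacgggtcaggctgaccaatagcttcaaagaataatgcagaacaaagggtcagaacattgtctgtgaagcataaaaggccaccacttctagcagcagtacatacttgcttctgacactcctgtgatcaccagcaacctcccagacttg
Dab2: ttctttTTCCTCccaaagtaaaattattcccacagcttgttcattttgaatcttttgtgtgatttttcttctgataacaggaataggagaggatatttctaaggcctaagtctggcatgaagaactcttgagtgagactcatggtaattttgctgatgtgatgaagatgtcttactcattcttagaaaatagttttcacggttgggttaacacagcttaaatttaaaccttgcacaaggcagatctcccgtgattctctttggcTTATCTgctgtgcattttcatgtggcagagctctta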

How the data were processed

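Single-cell RNA-seq of sorted mouse yolk sac cells was used as deposited. The read count values are the authors' and were made with Rsubread on Ensembl mouse release 84 (GRCm38) and featureCounts. The signal values are the deposited CPM, which the authors scaled from the counts of 926 cells and 15967 genes that passed their scater filter, with scran size factors. From these, the mean CPM of each class, the log2 ratio of mean CPM + 1, and shares of cells with 1 count or more (exact binomial 95% intervals) were computed. Total counts per cell ranged from 883020 to 2586615. No test was made, because each class is 1 sample.

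The members and lists were chosen with earlier results of these data known. Named genes are the 14 with the highest and the 14 with the lowest ratio among genes that pass the filter, are found in 50% or more of the cells of the higher class at a mean of 50 CPM or more there, and whose share of cells differs the same way; members of the lists, as examples; and *Cdh5*, *Itga2b* and *Ptprc*. Medians of lists cover only genes that pass the filter. The alternatives were a *Csf1r* minimum of 10 counts, thinned counts, scaling by the cell total, a pseudocount of 10, the mean of log2 values, no filter, a filter at 50% of cells, leaving out the highest cell of each class for each gene, leaving out cells with transcripts of both sexes at 5 counts, adding the captured cell that the authors removed, and leaving out 9 cells each with the fewest and the most genes. Leaving out cells with both kinds of transcript at 100 counts, and leaving out the cell with the highest CPM sum, were chosen after seeing the data. Gene coordinates are from GENCODE M21 (GRCm38), and promoter windows are from RefSeq (GRCm38.p6). All steps ran in Python 3.11.15: tables in pandas 2.3.3 and numpy 2.4.6, intervals in scipy 1.17.1, plots in matplotlib 3.10.9.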

Additional observations from a re-analysis of the deposited data

How the results depend on the processing

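Each class is 1 sample, and reads were counted without molecular barcodes, so the values describe these cells and say nothing of the spread between embryos. Of 13 alternatives, 11 were planned and 2 were chosen after seeing the data. Where a share of genes or a list median moved by more than 1.5-fold, or a sign changed, the cause was not tested unless the alternative itself sets it.

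Of the genes that pass, the shares called higher and lower were 1.17% and 1.80% with a pseudocount of 10 CPM, 6.26% and 2.41% with the difference of mean log2(CPM + 1), 6.84% and 7.98% with no filter and 2.29% and 3.22% with a filter at 50% of cells. They were 6.87% and 6.42% without cells with transcripts of both sexes, and 3.24% and 4.45% as reported. Of called genes 42.1% were higher in the values reported and 72.2% with the mean of log2 values. Thinned to 880000 counts, 33 cells were positive and 56 negative.

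With the mean of log2 values, list medians were 1.99 (Fc and pattern receptors), 1.15 (endothelial), 0.80 (myeloid transcription factors) and 1.95 (oxidase), and *Stab2* was at 0.14. With the filter at 50%, the Notch and arterial median was 0.75, that of cytokine receptors 0.70 and that of granule genes -0.025, where *Calr* alone was left. The Notch and arterial median was also above 0 with thinned counts (0.097), with no filter (0.16) and without cells with transcripts of both sexes (0.065). With no filter, antigen presentation was at -0.059 and mesenchymal genes at -0.051. Without the highest cell of each class, the erythroid median was -1.95 and the macrophage median -0.27. With *Csf1r* at 10 counts or more, the macrophage median was -0.12 and *Dab2* at -0.52. Without cells with transcripts of both sexes, antigen presentation was at 1.34, cytokine receptors at 0.79, mitochondrial genes at 0.059, *Stab2* at 1.29, *mt-Atp6* at 0.18 and *mt-Co3* at 0.069. Without the 9 cells with the fewest and the 9 with the most genes, the macrophage median was -0.035, the mitochondrial median -0.037, *Postn* at -0.76 and *mt-Atp6* at 0.0017. The Notch and arterial median was then 0.11 and that of blood progenitor transcription factors -0.048. The erythroid, megakaryocyte and pan-leukocyte medians kept their sign under all 13 alternatives. So did, among others, those of Fc and pattern receptors, the oxidase, CSF1R signalling, myeloid transcription factors, cytokine receptors and endothelial genes.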
